A study of Mus musculus with 22 samples.

Results

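The genes described here are the SR and hnRNP splicing factors of mouse liver, followed through the day in mice that lack adiponectin. Members were all array features whose annotated gene symbol is Srsf with a number or begins with Hnrnp, which gave 29 of 22206 features, 10 of the SR family and 19 of the hnRNP family, each gene with 1 feature. The livers came from male mice with a global knockout of adiponectin, a hormone secreted by fat cells (strain B6;129-Adipoqtm1Chan/J on a C57BL/6J background), aged 3 to 8 months, housed on a cycle of 12 h light and 12 h dark and fed chow freely. Times are zeitgeber times (ZT, hours after lights on), with 3 arrays each for ZT6 and ZT18 and 4 each for ZT2, ZT10, ZT14 and ZT22, 22 in all. The dark phase, when mice mostly feed, holds the 11 arrays of ZT14 to ZT22, and the light phase, when they mostly rest, the 11 arrays of ZT2 to ZT10. Every array is of the knockout, so time of day is what is compared and no effect of losing adiponectin is measured; livers of wild-type mice are not analysed here. Letters a to d name the arrays of a time. Some arrays stood apart: Tff3, a secreted trefoil peptide, measured 10.35 or more in 5 arrays (ZT6b, ZT6c, ZT14b, ZT14d and ZT22a) and 4.73 or less in the other 17.

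SR proteins carry RNA-binding domains and a tail rich in arginine and serine, and many of them bind exons and favour their inclusion. The hnRNPs are abundant nuclear proteins that coat new transcripts, and many of them repress exons or act on RNA stability and export. Many genes of both families control their own mRNA through exons whose inclusion leads to decay of the transcript. In mouse liver, splicing is known to vary with feeding and body temperature over the day. The arrays give 1 level per gene, so splice forms of a member cannot be told apart here.

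Over the day, 5 of the 29 members had a 24 h rhythm, 2 of them highest in the dark and 3 in the light. Hnrnpl, Srsf5 and Hnrnpdl peaked between ZT3.57 and ZT6.18, and Srsf3 and Hnrnpc peaked between ZT18.6 and ZT20.6. The fitted spans from trough to peak were modest, 2.27-fold in Hnrnpl, 2.03-fold in Srsf3, 2.02-fold in Srsf5, 1.87-fold in Hnrnpc and 1.50-fold in Hnrnpdl. The test was limma's F test on a fitted 24 h wave (cosine plus sine) over all 22 arrays, with a threshold of 0.05 on p-values adjusted over all features by the Benjamini-Hochberg method. It called 7.62% of all features and 13.6% of those above the median level, where 27 of the 29 members lay. The members' share, 17.2%, stands beside these backgrounds without a test of its own. The median span was 1.21-fold over the members and 1.24-fold over all features. Values were read as log2, and the bulk tissue cannot tell fewer cells of a type from less RNA per cell.

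The stretches of DNA before the start sites of the 5 called genes are shown because these genes carry the rhythms. They are the 250 bases before the annotated start in RefSeq (GRCm38.p6), 5′ to 3′ on the strand of the gene. Capitals mark matches on either strand to CACGTG (the E-box read by CLOCK and BMAL1), TTANGTAA (the D-box read by DBP), AGGTCA (the half-site read by ROR and REV-ERB), GAANNTTC (a unit of the heat-shock element) and CCAAT (the CCAAT box); no matches overlapped.
Hnrnpl (chr7:28810640-28810889, plus strand): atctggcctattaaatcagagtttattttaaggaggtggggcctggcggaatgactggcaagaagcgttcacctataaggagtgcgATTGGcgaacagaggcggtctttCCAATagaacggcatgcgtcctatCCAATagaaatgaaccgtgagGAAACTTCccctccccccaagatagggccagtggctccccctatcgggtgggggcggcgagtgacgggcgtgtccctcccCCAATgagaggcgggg
Srsf5 (chr12:80945249-80945498, plus strand): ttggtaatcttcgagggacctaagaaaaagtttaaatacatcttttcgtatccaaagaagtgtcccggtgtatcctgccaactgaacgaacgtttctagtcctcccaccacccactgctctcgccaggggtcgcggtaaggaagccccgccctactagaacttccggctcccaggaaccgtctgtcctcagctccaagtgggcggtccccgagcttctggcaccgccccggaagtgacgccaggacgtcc
Hnrnpdl (chr5:100039223-100039472, minus strand): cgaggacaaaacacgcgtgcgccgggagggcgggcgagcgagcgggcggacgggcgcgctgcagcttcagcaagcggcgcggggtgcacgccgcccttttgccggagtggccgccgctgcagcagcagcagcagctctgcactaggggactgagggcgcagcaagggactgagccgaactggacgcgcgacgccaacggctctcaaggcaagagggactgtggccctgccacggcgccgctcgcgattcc
Hnrnpc (chr14:52104022-52104271, minus strand): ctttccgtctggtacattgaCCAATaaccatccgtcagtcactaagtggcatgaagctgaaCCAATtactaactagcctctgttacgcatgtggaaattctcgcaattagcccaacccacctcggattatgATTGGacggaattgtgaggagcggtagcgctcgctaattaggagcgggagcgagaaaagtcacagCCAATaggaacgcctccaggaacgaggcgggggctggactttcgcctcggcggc
Srsf3 (chr17:29032410-29032659, plus strand): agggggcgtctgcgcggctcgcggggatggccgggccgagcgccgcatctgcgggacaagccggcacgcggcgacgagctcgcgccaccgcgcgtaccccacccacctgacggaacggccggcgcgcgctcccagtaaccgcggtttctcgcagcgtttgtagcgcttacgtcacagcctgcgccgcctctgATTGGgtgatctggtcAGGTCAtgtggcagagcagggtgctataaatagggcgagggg

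None of these 5 windows held CACGTG or TTANGTAA, which 6.02% and 2.06% of all 32851 windows of this length held. The AGGTCA match lay in Srsf3, 42 to 37 bases before the start, and 4607 of all 32851 windows held one. The GAANNTTC match lay in Hnrnpl, 96 to 89 bases before the start, against a share of 6.69% of all windows. CCAAT occurred 4 times in Hnrnpl, 4 times in Hnrnpc and once in Srsf3, and 0 times in Srsf5 and Hnrnpdl. At least 1 CCAAT was held by 33.8% of all windows and 4 or more by 0.84%. The cut of 4 equals the count in Hnrnpl and Hnrnpc, so the 0.84% describes and is no test. The 2 windows with 4 matches belong to Hnrnpc, highest in the dark, and Hnrnpl, highest in the light. Over all members, 27 had a window (39 windows with alternative starts) and the other 2 were Hnrnpll and Hnrnpul2. CCAAT stood in 19 of these 39 windows, CACGTG in 2 (Hnrnpd and Hnrnpf), TTANGTAA in 3, AGGTCA in 3 and GAANNTTC in 4. A match describes the letters and shows no binding.

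Hnrnpl, which binds CA-rich RNA and regulates splicing of many transcripts, had the lowest adjusted p of the members and was lower in the dark. The arrays measured 12.01, 12.37, 12.52 and 12.48 at ZT2, 12.27, 12.32 and 12.57 at ZT6, and 12.11, 12.20, 12.12 and 11.98 at ZT10. The values were 11.39, 11.58, 11.22 and 11.55 at ZT14, 11.62, 11.05 and 11.45 at ZT18, and 12.29, 11.60, 11.30 and 11.43 at ZT22. Of the 11 dark arrays 10 lay below every light array, and the lowest light array was at 11.98. The exception was ZT22a at 12.29, one of the arrays high in Tff3. The highest mean was 12.39 ± 0.16 (SD, n = 3) at ZT6 and the lowest 11.37 ± 0.29 (SD, n = 3) at ZT18. The fitted peak was ZT5.13 ± 0.500 h (SE, n = 22), with an adjusted p of 8.53e-05 from limma. The dark minus light difference was −0.79 ± 0.12 (SE; dark mean 11.49, light mean 12.28), with an adjusted p from limma of 0.000209. Its paralogue Hnrnpll, known from T cell splicing, had time means between 9.88 at ZT18 and 10.07 at ZT10, a dark minus light difference of −0.05 ± 0.12 (SE) and an adjusted p of 0.953 for the 24 h rhythm.

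Hnrnpdl, an RNA-binding paralogue of the AU-rich element factor Hnrnpd, was also lower in the dark, by less. Its arrays measured 11, 10.87, 11.03 and 11.57 at ZT2, 11.22, 10.89 and 11.20 at ZT6, and 11.27, 11.19, 11.03 and 11.29 at ZT10. The values were 10.85, 10.63, 10.80 and 10.92 at ZT14, 10.72, 10.49 and 10.55 at ZT18, and 11.26, 10.65, 10.72 and 10.69 at ZT22. Of the 11 dark arrays 9 lay below every light array, and ZT14d and ZT22a lay within the light range. The highest mean was 11.20 ± 0.12 (SD, n = 4) at ZT10 and the lowest 10.59 ± 0.12 (SD, n = 3) at ZT18. The fitted peak was ZT6.18 ± 0.922 h (SE, n = 22; adjusted p from limma = 0.0446), and the dark minus light difference was −0.40 ± 0.11 (SE; dark mean 10.74, light mean 11.14; adjusted p = 0.0265). The 24 h call rests close to the threshold: leaving out any 1 array other than ZT2b, ZT2d, ZT6b or ZT22a, which is any of 18 arrays, gave adjusted p-values from 0.0508 to 0.104. The dark minus light call was lost without ZT6a, ZT18b or ZT18c (adjusted p between 0.0514 and 0.0619). Hnrnpd itself had time means between 10.54 at ZT22 and 10.84 at ZT2 and was not called (adjusted p = 0.739 for the rhythm).

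Srsf5, an SR protein that promotes exon inclusion, was lower in the dark. The arrays measured 13.87, 14.13, 13.70 and 14 at ZT2, 13.46, 13.85 and 13.76 at ZT6, and 13.69, 13.66, 13.48 and 13.39 at ZT10. The values were 11.87, 12.96, 13.42 and 12.98 at ZT14, 13.21, 13.18 and 12.98 at ZT18, and 14.07, 13.09, 13.77 and 13 at ZT22. Of the 11 dark arrays 8 lay below every light array, the lowest of which was at 13.39, while ZT14c, ZT22a and ZT22c lay within the light range. The lowest array, ZT14a, was at 11.87 and the next lowest at 12.96. Without ZT14a the fitted 24 h amplitude was 0.404, against 0.507 with all arrays, so the span of 2.02-fold rests partly on this array. The 24 h call stayed without it (adjusted p from limma = 0.0154). The highest mean was 13.92 ± 0.18 at ZT2 and the lowest 12.81 ± 0.66 at ZT14 (SD, n = 4 each). The fitted peak was ZT3.57 ± 0.811 h (SE, n = 22; adjusted p from limma = 0.0106), and the dark minus light difference was −0.59 ± 0.16 (SE; dark mean 13.14, light mean 13.72; adjusted p = 0.0266). The phase difference was no longer called without ZT6b, ZT18c or ZT22d (adjusted p between 0.0526 and 0.0615).

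Srsf3, the smallest SR protein and one needed for hepatocyte maturation in mice, was higher in the dark. The arrays measured 9.92, 10.16, 10 and 9.19 at ZT2, 9.38, 9.29 and 9.51 at ZT6, and 8.94, 9.41, 8.47 and 9.45 at ZT10. The values were 10.04, 10.32, 10.35 and 10.44 at ZT14, 10.20, 10.41 and 10.14 at ZT18, and 10.48, 9.30, 10.05 and 9.48 at ZT22. The 7 arrays of ZT14 and ZT18 lay between 10.04 and 10.44, within a narrow range, whereas the 4 arrays of ZT22 spread from 9.30 to 10.48 and those of ZT2 from 9.19 to 10.16. The lowest mean was 9.07 ± 0.46 at ZT10, and the next time, ZT14, had the highest, 10.29 ± 0.17 (SD, n = 4 each), with no overlap between the arrays of these times. The fitted peak was ZT18.6 ± 0.892 h (SE, n = 22; adjusted p from limma = 0.0352), and the dark minus light difference was 0.70 ± 0.15 (SE; dark mean 10.12, light mean 9.43; adjusted p = 0.00669). The 24 h call was lost without any 1 of ZT6a, ZT6b, ZT10a, ZT10b, ZT18a, ZT18b, ZT18c or ZT22a (adjusted p between 0.0503 and 0.0723). The jump between ZT10 and ZT14 went with a 12 h component of 0.35 ± 0.10 in amplitude (SE; unadjusted p = 0.00723), which was not called after adjustment (adjusted p from limma = 0.469).

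Hnrnpc, which binds tracts of uridine and is a core protein of the particles that package new transcripts, climbed through the dark. Its arrays measured 12.50, 12.37, 12.53 and 12.22 at ZT2, 12.21, 11.67 and 12.29 at ZT6, and 11.99, 12.11, 11.74 and 11.84 at ZT10. The values were 12.34, 12.39, 12.29 and 12.52 at ZT14, 12.64, 12.63 and 12.57 at ZT18, and 12.76, 12.79, 13.19 and 12.76 at ZT22. The time means were 12.40 at ZT2, 12.06 at ZT6, 11.92 ± 0.16 (SD, n = 4) at ZT10, 12.38 at ZT14, 12.61 at ZT18 and 12.88 ± 0.21 (SD, n = 4) at ZT22. All 4 arrays of ZT22 and all 3 of ZT18 lay above every light array, while those of ZT14 lay within the range of ZT2. The fitted peak was ZT20.6 ± 0.577 h (SE, n = 22; adjusted p from limma = 0.000254), and the dark minus light difference was 0.50 ± 0.10 (SE; dark mean 12.62, light mean 12.13; adjusted p = 0.00328).

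**Figure D1:**
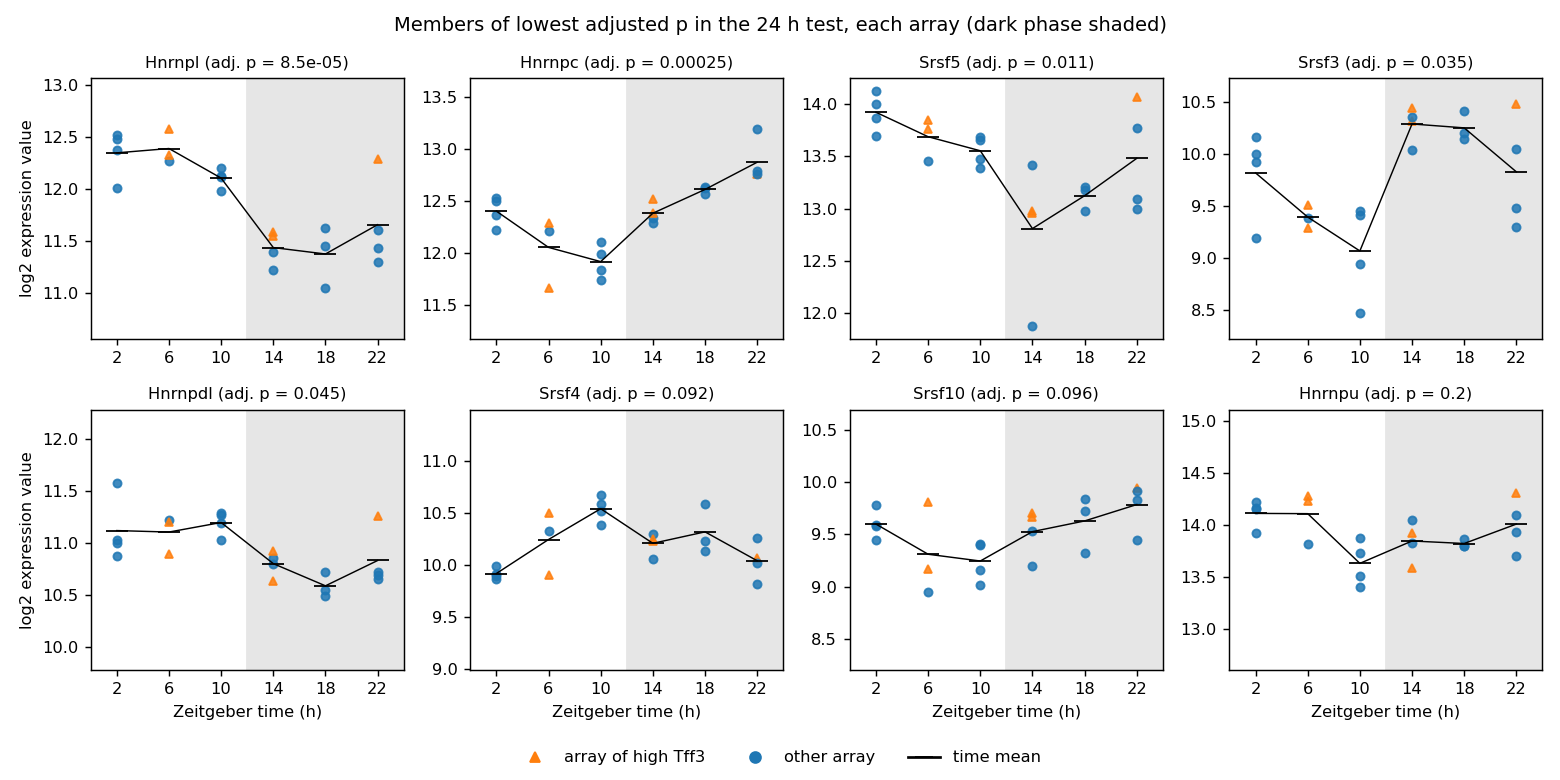
Log2 expression value (vertical axis, the same range in every panel) against zeitgeber time in hours (horizontal axis) of the 8 members of lowest adjusted p in the 24 h test; points are single arrays, triangles mark the 5 arrays high in Tff3, lines join time means and the dark phase is shaded. Hnrnpl, Srsf5 and Hnrnpdl lie lower at most dark arrays, Srsf3 jumps between ZT10 and ZT14, and Hnrnpc climbs to its highest mean of 12.88 at ZT22.

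Among the other members, Srsf4, Srsf10 and Hnrnpu came nearest to a call without passing. Srsf4, an SR protein closely related to Srsf5 and Srsf6, had a narrow group of low values at ZT2 and its highest mean at ZT10. Its arrays measured 9.90, 9.99, 9.92 and 9.87 at ZT2, 10.33, 10.50 and 9.91 at ZT6, and 10.59, 10.52, 10.67 and 10.39 at ZT10. The values were 10.06, 10.23, 10.30 and 10.25 at ZT14, 10.14, 10.59 and 10.23 at ZT18, and 10.07, 10.26, 9.82 and 10.02 at ZT22. The arrays of ZT2 (mean 9.92 ± 0.05) did not overlap those of ZT10 (mean 10.54 ± 0.12; SD, n = 4 each), but the adjusted p from limma was 0.0925, with a fitted peak at ZT11.7 and a span of 1.37-fold. Its dark minus light difference was −0.05 ± 0.10 (SE; dark mean 10.19, light mean 10.24). ZT2 and ZT10 were picked as its lowest and highest times, so the gap between them, as in Srsf3 and Hnrnpu, is no separate support. Such a gap was common among the members. Of the called genes, Hnrnpl, Hnrnpc, Srsf5 and Hnrnpdl had it too. Of those not called, Srsf10, Hnrnpk, Hnrnpab, Srsf6, Hnrnpm, Srsf9, Srsf11 and Hnrnph3 also had it. Their 24 h adjusted p-values from limma ran from 0.0957 in Srsf10 to 0.998 in Hnrnph3, with 0.361 in Hnrnpab. The share of all features with such a gap was not counted.

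Srsf10, a splicing repressor that is activated by dephosphorylation on heat shock, had its lowest mean at ZT10 and its highest at ZT22. Its arrays measured 9.45, 9.78, 9.58 and 9.59 at ZT2, 8.95, 9.81 and 9.17 at ZT6, and 9.41, 9.01, 9.16 and 9.40 at ZT10. The values were 9.20, 9.71, 9.53 and 9.67 at ZT14, 9.84, 9.73 and 9.32 at ZT18, and 9.95, 9.45, 9.92 and 9.83 at ZT22. The fitted peak at ZT20.9 lay near that of Hnrnpc, with a span of 1.43-fold and an adjusted p from limma of 0.0957. The dark minus light difference was 0.26 ± 0.12 (SE; dark mean 9.65, light mean 9.39; adjusted p = 0.216). It was called for the rhythm when ZT6b was left out (adjusted p = 0.0394).

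Hnrnpu, a large protein that binds RNA and chromatin, had its lowest mean at ZT10. Its arrays measured 14.22, 13.92, 14.15 and 14.16 at ZT2, 13.82, 14.23 and 14.28 at ZT6, and 13.88, 13.73, 13.41 and 13.51 at ZT10. The values were 13.83, 13.92, 14.05 and 13.59 at ZT14, 13.80, 13.87 and 13.80 at ZT18, and 14.31, 13.93, 14.10 and 13.70 at ZT22. The 4 arrays of ZT10 (mean 13.63 ± 0.21) lay below the 4 of ZT2 (mean 14.11 ± 0.13; SD, n = 4 each), its lowest and highest times. The 24 h test gave an adjusted p from limma of 0.198 and a span of 1.31-fold.

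The remaining 21 members had adjusted p-values of 0.206 or more in the 24 h test, and fitted spans from 1.01-fold in Hnrnph3 to 1.37-fold in Hnrnpr. Of the 29 members, 9 had an unadjusted p below the threshold (31.0%, against 21.1% of all features and 32.3% of those above the median level), and over the 24 members that were not called the median span was 1.20-fold. Hnrnpk, a protein that binds C-rich RNA and DNA, had the next lowest adjusted p (0.206), with time means of 16.95 ± 0.08 (SD, n = 4) at ZT10 and 16.55 ± 0.10 (SD, n = 3) at ZT18. Of the SR proteins, Srsf1, which is needed for both constitutive and regulated splicing, had time means between 11.50 at ZT10 and 12.00 at ZT22. Srsf2, another founding SR protein, had them between 10.04 at ZT22 and 10.41 at ZT14, and Srsf6 between 9.23 at ZT18 and 9.52 at ZT10. Srsf9 stood highest at ZT14 (8.24 ± 0.26, SD, n = 4) and between 7.65 and 7.93 at the other times, whereas Srsf11 was between 9.87 at ZT18 and 10.30 at ZT22. The G-tract binders Hnrnpf, Hnrnph1 and Hnrnph2 had ranges of time means of 0.37, 0.33 and 0.41, and the AU-rich binders Hnrnpab and Hnrnpa0 of 0.36 and 0.50. Hnrnpm and Hnrnpa2b1, both splicing regulators, ranged by 0.45 and 0.46, and Hnrnpul1 and Hnrnpul2 by 0.28 and 0.22. Hnrnpr ranged by 0.68 between ZT10 and ZT2, with overlapping arrays.

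The features of highest mean level were those of Hnrnpk (16.79), Hnrnpa2b1 (15.31), Hnrnpf (14.18) and Hnrnpab (14.12), and those of lowest mean were Srsf12 (3.77), Hnrnph3 (4.18), Hnrnpa1l2-ps2 (6.66) and Hnrnpa0 (7.25). Brightness also depends on the probes, so these levels do not order the genes by expression. The lower quartile of an array lay between 3.67 and 3.91, near the means of Srsf12 and Hnrnph3. Hnrnpa1l2-ps2 is named as a pseudogene of the Hnrnpa1 family, and its probes may share sequence with related genes. Within a time, the SD of the members had a median of 0.254 and ran from 0.148 to 0.387 in Srsf5, against a median of 0.316 over all features.

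**Figure D2:**
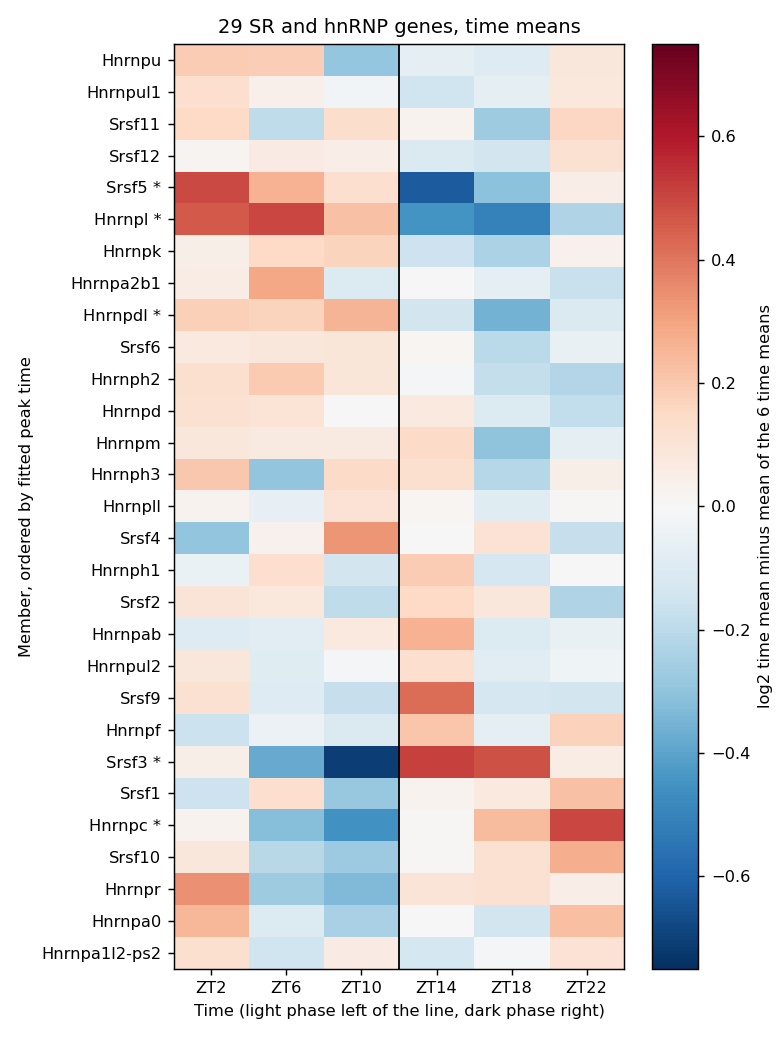
Time means of the 29 members on a log2 scale, each minus the mean of its 6 time means (colour), with members down the page in order of fitted peak time and times from left to right; asterisks mark members called for a 24 h rhythm and the line divides the phases. The strongest colours belong to Srsf5, Hnrnpl, Srsf3 and Hnrnpc, and most other members stay pale.

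Between the phases, the same 5 members were called: Srsf3 and Hnrnpc were higher in the dark and Hnrnpl, Srsf5 and Hnrnpdl lower. This comparison uses the same arrays as the rhythm test and is no separate evidence. Of all features, 3.25% were called higher in the dark and 2.02% lower (5.27% in all), and 9.25% of those above the median level were called in either direction, against 17.2% of the members. The other 24 members had differences between −0.27 ± 0.13 (SE) in Hnrnph2 and 0.26 ± 0.12 (SE) in Srsf10, with standard errors from 0.092 to 0.154 log2 units. By sign alone, 12 members had a positive and 17 a negative difference. The median difference was −0.05 over the members and −0.01 over all features. All 3 dark means lay below all 3 light means in 6 members (Hnrnpl, Srsf5, Hnrnpdl, Hnrnpk, Hnrnph2 and Srsf6) and above them in 1 (Srsf3), or 24.1% of the members, against 16.8% of all features.

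**Figure D3:**
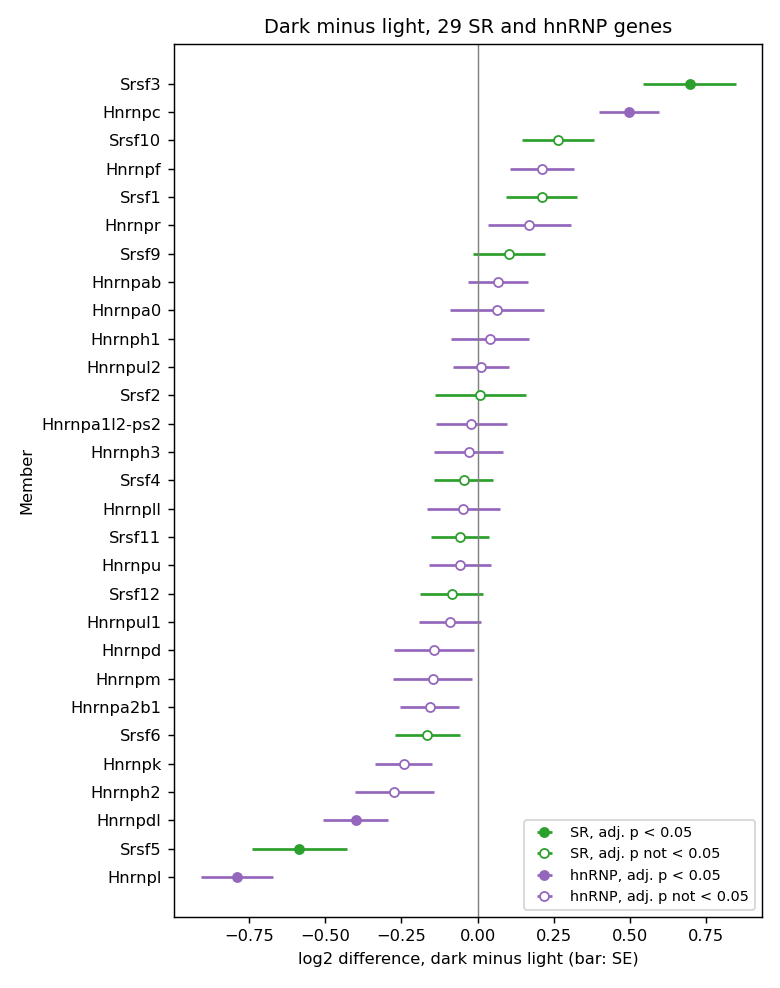
Dark minus light difference on a log2 scale (horizontal axis, bars are SE, n = 11 dark and 11 light arrays) of the 29 members (vertical axis), by family, with filled points for adjusted p below 0.05. Srsf3 at 0.70 and Hnrnpc at 0.50 stand at the upper end, Hnrnpl at −0.79, Srsf5 at −0.59 and Hnrnpdl at −0.40 at the lower end, and the others lie between.

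Tests of other shapes gave fewer calls. An F test of any difference among the 6 time means called 3 members, Hnrnpl (adjusted p = 0.00237), Hnrnpc (0.00389) and Srsf3 (0.0134), or 10.3% against 6.14% of all features and 11.2% of those above the median level, and did not call Srsf5 (0.0581) or Hnrnpdl (0.172). A 12 h component beside the 24 h term was called by limma in 0 members, and in 0.0180% of all features. At an unadjusted p below 0.05 there were 4 members, Srsf3, Srsf11, Srsf9 and Hnrnph3 (13.8%, against 7.56% of all features and 9.66% of those above the median level), with adjusted p-values of 0.469 or more.

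Part of the calls changed without the 5 arrays high in Tff3. Without them the 24 h rhythm was called in 3 members, Hnrnpl (adjusted p = 0.000414), Hnrnpc (0.00148) and Hnrnpdl (0.0179), and no longer in Srsf5 (0.0542) or Srsf3 (0.128). Calls over all features fell too, to 5.88% without these arrays, against 7.62% with them. The spans were then 2.41-fold in Hnrnpl, 1.87-fold in Hnrnpc, 1.68-fold in Hnrnpdl, 2.06-fold in Srsf5 and 1.94-fold in Srsf3. The phase difference was called in 2, Hnrnpl (−0.87, adjusted p = 0.000909) and Hnrnpdl (−0.48, adjusted p = 0.0486), and not in Hnrnpc (0.44, 0.0574), Srsf5 (−0.63, 0.0856) or Srsf3 (0.60, 0.0912). Over all features 2.78% were then called between phases, against 5.27% with these arrays. Hnrnpl, Srsf10, Hnrnpk, Hnrnpr, Hnrnpab and Hnrnpul1 exceeded, in each of the 5, all remaining arrays of the same time, and Srsf12 lay below them. These 7 members are 24.1%, against 8.40% of all features and 11.8% of those above the median level; since Tff3 levels chose the arrays, this is a description.

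The arrays correlated with each other between 0.976 and 0.994. Adipoq, the targeted gene, measured between 3.30 and 4.69 with a median of 3.62, near the lower quartile; it is made mainly by fat, so its level in liver checks the genotype little. Of the core clock genes 15 of 15 were rhythmic. The hepatocyte markers (10 genes, all measured) had a mean level between 18.49 and 18.59 in dark arrays and between 18.45 and 18.54 in light arrays, and a median span of 1.08-fold. All but Hnf4a lay above the 99.3 percentile of mean level, and whether signals saturate there was not tested. Hnf4a (mean 13.25) had time means that ranged by 0.86 (adjusted p = 0.0208, limma's F test of any difference among times). Of 76 measured markers in 10 lists of other cells (Kupffer, sinusoidal endothelial, stellate, bile duct, lymphocyte, neutrophil, erythroid, adipocyte, pancreatic acinar and proliferating cells) 4 were rhythmic, Cdh5 and Stab2 of the endothelium, Cd5l of Kupffer cells and S100a9 of neutrophils. Between phases 4 of the 76 were called, Mcm2 of proliferating cells higher in the dark (0.83, adjusted p from limma = 0.0313) and Cd5l (−0.71, 0.0194), S100a9 (−0.58, 0.0271) and the lymphocyte marker Cd79b (−0.48, 0.0320) lower. The mean level of each of these 10 lists overlapped between dark and light arrays. That of the core clock genes did too (8.55 to 9.72 in dark, 8.20 to 9.94 in light arrays). Overlap therefore cannot show a steady share of a cell type. The sinusoidal endothelial list ran from a mean of 8.56 at ZT14 to 9.11 at ZT22. Besides Cdh5, limma's F test of any difference among times called Sox9 (adjusted p = 0.00900), Clec4f (0.0142), Kdr (0.0214) and Clec4g (0.0459). The part of these cells in the results was not tested.

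Other splicing genes were read from lists of factors that act with SR and hnRNP proteins. Over 6 lists 11 of 89 measured genes were rhythmic (12.4%, against 7.62% of all features and 13.6% of those above the median level), 8 with a peak in the dark and 3 in the light. Of the 3, Rbmx (ZT0.614 ± 0.918 h, SE) and Esrp2 (ZT0.909 ± 0.970 h, SE) peaked within 1 SE of lights on. So did Tardbp (ZT23.7 ± 0.919 h, SE), which is counted in the dark. Of 10 kinases and import factors of SR proteins 2 were called, Srpk1, which phosphorylates SR proteins in the cytoplasm (1.74-fold, ZT16.5, adjusted p from limma = 0.0226), and Dyrk1a (1.60-fold, ZT4.46, 0.0476), and Clk1, a nuclear kinase of SR proteins, was not (0.204). Of 18 SR-related proteins 2 were called, the paralogues Tra2a (2.54-fold, ZT20.1, 0.000968) and Tra2b (1.66-fold, ZT21.9, 0.0228), which bind GA-rich exonic enhancers, while Rsrc2 was not (0.0705). Tra2a had a dark mean of 9.94 and a light mean of 9.13.

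Of 11 measured hnRNPs and related RNA-binding proteins under other symbols 2 were called, Tardbp (1.51-fold, ZT23.7, adjusted p from limma = 0.0117) and Rbmx (1.64-fold, ZT0.614, 0.0119), and Pcbp2 was not (0.0575). Of 27 snRNP and U2 core genes 1 was called for a 24 h rhythm, Snrpa, a U1 protein (2.06-fold, ZT19.8, 0.00159), while Sf3a1 (0.0780) and Snrpa1 (0.0933) were not. Prpf3 of this list, not called for 24 h (0.116), was called by limma among times (0.00103) and higher in the dark (0.54, 0.00214). U2af1 was called among times (0.0439). Of 16 other splicing regulators 3 were called, Tia1 (1.88-fold, ZT18.6, 0.00113), Mbnl2 (2.14-fold, ZT14.5, 0.00146) and Esrp2, a regulator of hepatocyte splicing (1.63-fold, ZT0.909, 0.0195). Of 7 measured genes of nonsense-mediated decay, which removes transcripts with early stop codons, Upf1 was the 1 called (2.08-fold, ZT16.2, 0.000163), and Smg6 (0.489) and Smg5 (0.588) were not. Beside these, 6 of 10 measured temperature-responsive genes were rhythmic, the lowest adjusted p-values being those of Rbm3, a cold-inducible RNA-binding protein (2.98-fold, ZT12.7, 1.63e-05), of the chaperone gene Hsph1 (5.67-fold, peak at ZT16.8, 0.00114) and of the chaperone gene Hspa1a (2.19-fold, peak at ZT13.1, 0.00159).

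**Figure D4:**
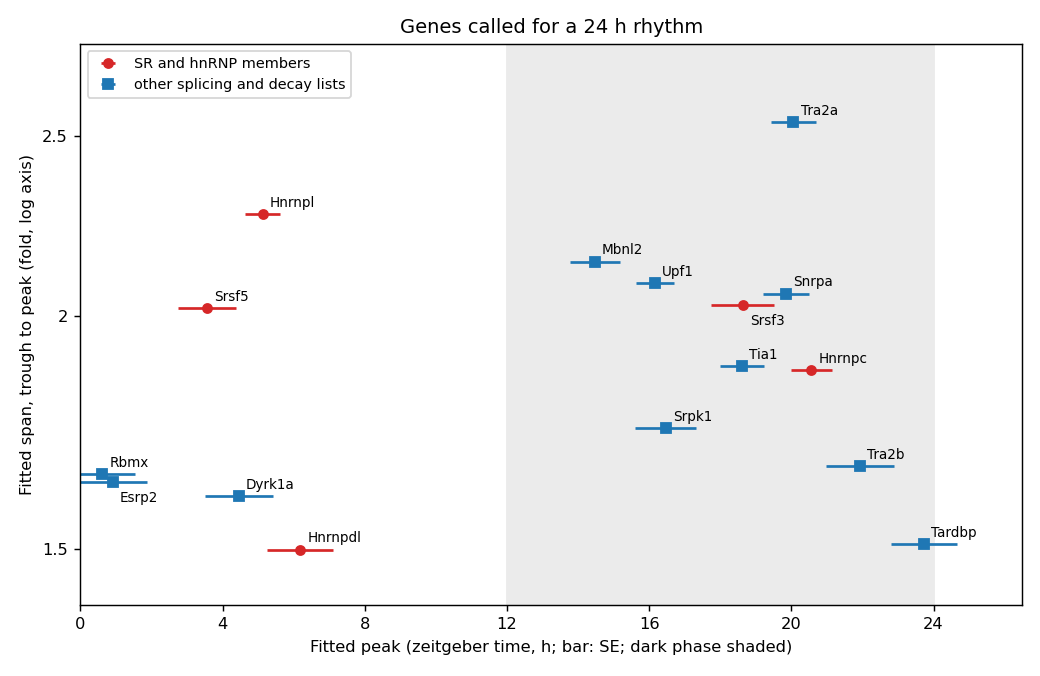
Fitted span from trough to peak (vertical axis, fold, log axis) against fitted peak time (horizontal axis, zeitgeber hours, bars are SE) of the 5 members called for a 24 h rhythm and of the 11 called genes of the 6 other splicing and decay lists, with the dark phase shaded. Hnrnpl, Srsf5 and Hnrnpdl lie at ZT3.57 to ZT6.18, and Srsf3 and Hnrnpc lie among the 8 listed genes that peak in the dark.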

How the data were processed

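Per the labels' protocols, TRIzol was used to isolate liver RNA, of which 100 ng went through the WT Plus kit onto each Clariom S mouse array. The authors deposited 1 log2 expression value for each feature on each array, with 2 decimals. No source states the log base; it was read as 2 from the range of values, and every fold rests on that reading. How background was corrected and probes were summarized, and with which software, is not given in the sources used here. Array medians lay between 5.28 and 5.36. Arrays have no read depth, and their number limits the precision.

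Genes were named from the platform annotation (19572 of 22206 features have 1 symbol, 2634 have none). No feature carried the symbol Srsf7, Hnrnpa1 or Hnrnpa3 in the annotation used, so these genes were not analysed here. Groups follow the time in the labels, each array was taken as 1 mouse, and p-values reflect only how these samples vary. R 4.3.3 with limma 3.58.1 and data.table (version 1.17.8) was used. lmFit and eBayes were run on all features without a filter, with Benjamini-Hochberg adjustment over all of them. The 4 tests were a 24 h cosine with sine, any difference among 6 time means, a 12 h cosine and sine beside the 24 h terms, and the mean of ZT14, ZT18 and ZT22 minus that of ZT2, ZT6 and ZT10. The scripts were tested on simulated data. Spans are 2 raised to the doubled amplitude, and group means carry the SD. Where a listed gene had more than 1 feature, the brightest stood for it.

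The members, lists and the Tff3 alternative were chosen with earlier results of these data known. Values in every array are given for the 8 members of lowest adjusted p in the 24 h test. The 4 highest and 4 lowest means are named, other members by ranges and counts, and in each companion list at most 3 genes, chosen by lowest adjusted p. Prpf3 and U2af1 were named in addition, for their calls in other tests, after their values were seen. The called markers of other cells were named after their values were seen. Alternatives were quantile normalization, median centring, features above the median level, eBayes with trend and robustness, weights per array, a block for the replicate letter, omission of each array in turn, the 5 Tff3-high arrays left out, ranks, 12 h terms added to the 24 h test, an F test without moderation, and dark and light as plain groups.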

Additional observations from a re-analysis of the deposited data

Results flagged for a closer look

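Of 116 groups of 4 arrays (the 29 members at ZT2, ZT10, ZT14 and ZT22), 5 had an array far from the other 3 by Dixon's ratio, about as many as chance gives at 1 in 20. Hnrnpc measured 13.19 in ZT22c, with the others between 12.76 and 12.79. Hnrnpdl measured 11.26 in ZT22a, one of the Tff3-high arrays, with the others between 10.65 and 10.72. Hnrnpm measured 10.83 in ZT2a against 10.89 to 10.90, and Hnrnpul1 measured 11.48 in ZT10b against 11.44 in each of the other 3; both gaps are small beside the spread of these genes at other times. Hnrnpd measured 10.59 in ZT14d, with the others between 10.85 and 10.90.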

How the results depend on the processing

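Hnrnpl and Hnrnpc kept their 24 h call under all 10 alternative settings and without any single array, with adjusted p-values from limma of at most 0.000446 and 0.00229. The number of members called for a 24 h rhythm was 5 and ranged from 3 to 7. Omitting the Tff3-high arrays left 3 (Srsf3 and Srsf5 were lost), with 5.88% of all features called. The count was 3 with ranks, where Srsf3 and Hnrnpdl were lost (5.92% of all features). It was 7 among features above the median level, where Srsf4 and Srsf10 were added (18.7% of those features called). When single arrays were left out the count ranged from 3 to 5, with 1464 to 1691 of all features called. The phase difference was called in 5 members (5.27% of all features), and in 2 without the Tff3-high arrays (2.78% of all features). It was called in 3 to 5 when single arrays were left out (825 to 1427 of all features), with 3 without ZT18c (3.76% of all features). A difference among times was called in 3 members (6.14% of all features), and in 5 among features above the median level (16.2% of those features). It was called in 2 without the Tff3-high arrays (Srsf3 lost, 4.58% of all features). When single arrays were left out it was called in 3 to 4, and in 1078 to 1579 of all features. The 12 h count stayed at 0 under its 8 alternatives and without any single array. With the replicate letter as a block 4 members were rhythmic (6.88% of all features), with Srsf3 lost (adjusted p = 0.0552), and 5 differed between phases (4.81% of all features). The letters were not taken to pair the arrays: same-letter arrays of different times had deviations from their time means correlated from −0.236 to 0.226, and 5 of 22 arrays correlated best with their own letter. The unmoderated F test also lost Srsf3, leaving 4 (6.82% of all features). Dark and light as plain groups lost the difference of Srsf5, leaving 4 (3.15% of all features). Signal near background limits Srsf12 and Hnrnph3.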
